A study of Rattus norvegicus with 40 samples.

Results

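Plasma miRNAs of 7 rats that later had epilepsy after a traumatic brain injury (TBI+) were compared with those of 4 sham-operated rats on day 9 after the operation (D9). The libraries were chosen by their labels alone, as all D9 libraries of TBI+ rats and all D9 libraries of sham-operated rats, which made 11 of the 40 libraries of the series. Of the 752 miRNAs counted, 541 had a read in any D9 library and were tested, and 506 had a read in any of these 11 libraries.

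All rats were adult male Sprague-Dawley rats. TBI+ rats received a lateral fluid-percussion injury, a pressure pulse onto the exposed dura, and were assigned to the epilepsy outcome by continuous video-EEG in the sixth month, where at least 1 unprovoked electrographic seizure was seen. Sham-operated rats had the anaesthesia and craniotomy without the impact. Injured rats without that outcome (TBI−) served to estimate the spread between rats and are otherwise given for 2 miRNAs only, and the D2 libraries of the same 11 rats, drawn on day 2, were used for the comparison between days. Tail-vein blood was taken under isoflurane into EDTA tubes, the plasma RNA was sequenced from adapter-ligated small RNA without molecular identifiers, and 5 aliquots were pooled per rat. The outcome was defined months after the blood was drawn and was taken here from the labels.

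MiRNAs are short RNAs that lower the output of messenger RNAs with sites matching their seed, the bases near their 5′ end. In plasma they travel in vesicles, in protein complexes and in lipoproteins, and they reach it from blood cells, vessel walls, liver, muscle and other organs. After brain injury, circulating miRNAs have been studied as markers because a few of them are strongly enriched in neurons. Several miRNA genes lie in clusters that are transcribed together, and each hairpin can give 2 mature strands, named 5p and 3p.

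Library totals, the sums of reads over all miRNAs, were 140636, 162125, 202059 and 358202 in sham rats 1 to 4. In TBI+ rats 1 to 7 they were 1301295, 611876, 1267480, 544992, 776664, 1867719 and 2083862. Every TBI+ library was larger than every sham library. The TBI+ mean, 1207698 ± 604924 reads (SD, n = 7), was 5.60 times the sham mean of 215756 ± 98315 reads (SD, n = 4; exact permutation test over 330 splits, two-sided, p = 0.0121). On D2 the same rats gave a ratio of 1.40 (exact permutation test, two-sided, p = 0.333). Levels are given in CPM, the reads of a miRNA per 1000000 reads of its library. A count of 3 reads, used as the floor of detection, corresponded to 21.3, 18.5, 14.8 and 8.38 CPM in sham rats 1 to 4 and to between 1.44 and 5.50 CPM in the TBI+ rats. Such a floor covers counting error alone: without molecular identifiers, PCR copies of 1 molecule are counted as several reads.

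Sample titles carry library numbers. On D9, sham rats 1 to 4 and TBI+ rats 1 to 4 had the 8 highest numbers, while those of TBI+ rats 5 to 7 were lower and lay among the numbers of the sham rats on D2. No batch is named in the sources used here, and the numbers have gaps, so treating the 8 libraries as 1 run is a grouping made here. Within this run, the TBI+ mean was 931411 ± 408729 reads (SD, n = 4) and 4.32 times the sham mean (two-sided exact permutation test, p = 0.0286). Calls and fold changes were therefore also computed within that run of 8 libraries.

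Sham rat 2 stood apart from the other 10 libraries. It had 12 miRNAs at 100 CPM or more that exceeded 4 times the level of every other of the 11 libraries, and none of the other 10 libraries had 1 such miRNA. These were miR-7a-5p, miR-7b, miR-24-3p, miR-25-5p, miR-146a-5p, miR-185-5p, miR-194-5p, miR-200c-3p, miR-425-3p, miR-455-3p, miR-494-3p and miR-503-5p. Calls, fold changes, library totals and numbers of detected miRNAs were computed with and without this rat.

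**Figure D1:**
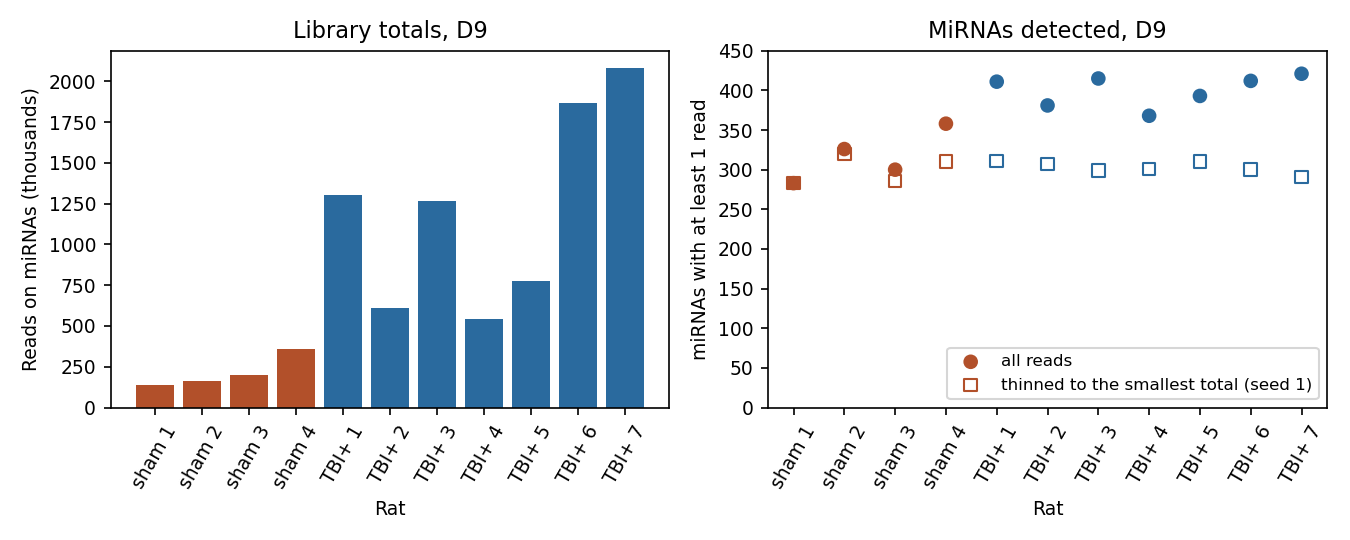
Left, library totals on D9 for each rat; right, the number of miRNAs with at least 1 read in each rat, before (filled circles) and after (open squares) random thinning of every library to 140636 reads (seed 1). The 4 sham libraries are the smallest of the 11, and the gap in detected miRNAs nearly closes after thinning.

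Reads were found on 283, 326, 300 and 358 miRNAs in sham rats 1 to 4 and on between 368 and 421 in the TBI+ rats (median 411). All TBI+ rats lay above all sham rats, with means of 400 ± 19.9 (SD, n = 7) and 317 ± 32.7 (SD, n = 4; two-sided exact permutation test, p = 0.00303, which no other split of the 11 rats can undercut). With at least 3 reads required, the means were 333 ± 25.8 and 246 ± 25.1 (exact permutation test, two-sided, p = 0.00303).

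At equal depth this gap did not exceed the variation among rats. Every library was thinned at random without replacement to 140636 reads, the smallest D9 total, with 5 random seeds. The TBI+ mean then exceeded the sham mean by 2.96, 7.18, 6.29, 1.64 and 5.32 miRNAs (exact permutation tests, two-sided, p = 0.685, 0.433, 0.448, 0.845 and 0.509). Leaving out sham rat 2, which had the most miRNAs of the 4 after thinning with each seed, the excess was 9.71, 13.1, 13.6, 9.81 and 12.6 (exact permutation tests, two-sided, p = 0.208, 0.2, 0.075, 0.125 and 0.133). Within the run of 8 libraries it was 4.75, 8.25, 11, 1.5 and 8.75 (exact permutation tests, two-sided, lowest p = 0.343).

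The most abundant miRNAs set the scale on which the others are read. MiR-22-3p, expressed in many tissues, was at 265444, 107029, 264269 and 146914 CPM in sham rats 1 to 4 and between 75169.8 and 163499 CPM in the TBI+ rats (median 110238). High levels were seen in sham rats 1 and 3, while sham rats 2 and 4 lay within the TBI+ range. In edgeR it missed the threshold with all sham rats (log2FC −0.70, standard error 0.31, adjusted p = 0.264), and without sham rat 2 as well (log2FC −1.06, standard error 0.33, adjusted p = 0.114), whereas DESeq2 called it without sham rat 2 (log2FC −1.08, adjusted p = 0.0424). MiR-92a-3p, from the miR-17-92 cluster and plentiful in red blood cells, was at 84879, 89012, 79348 and 108587 CPM in sham rats 1 to 4 and between 84833 and 142529 CPM in the TBI+ rats (median 114627). It was the most abundant miRNA of TBI+ rats 5 to 7, whereas miR-22-3p led in the other 8 libraries. MiR-192-5p, a miRNA of liver and gut, was at 84409, 63211, 34228 and 92892 CPM in sham rats 1 to 4 and between 35405 and 97988 CPM in the TBI+ rats (median 73148). MiR-10b-5p, encoded in a Hox gene cluster, was at 42229.6, 35177, 74647 and 37663 CPM in sham rats 1 to 4 and between 38012 and 61899.6 CPM in the TBI+ rats (median 54449). The groups overlapped for both. MiR-10a-5p, the fifth, had counts within 5% of those of miR-10b-5p over all libraries, so the pair was not told apart.

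With all 4 sham rats, the quasi-likelihood test of edgeR gave 10 of the 541 miRNAs an adjusted p below 0.05 (Benjamini-Hochberg), which is what is meant here by called. All 10 were downregulated in TBI+ rats (1.85% of the miRNAs tested), none was upregulated, and 86 had an unadjusted p below 0.05 (37 higher, 49 lower). DESeq2 called 2 upregulated (0.597% of the 335 with an adjusted p) and 9 downregulated miRNAs (2.69%), and 2 of its 11 were among the 10 of edgeR (miR-7a-5p and miR-7b). The other 9 were let-7a-1-3p and let-7c-2-3p, higher, and miR-25-5p, miR-140-3p, miR-149-5p, miR-326-3p, miR-351-5p, miR-455-5p and miR-674-5p, lower. For 6 of the remaining 8 of edgeR (miR-24-3p, miR-185-5p, miR-200c-3p, miR-455-3p, miR-494-3p and miR-503-5p) DESeq2 gave no p, so it could not call them. Without sham rat 2, DESeq2 called 5 of its 11 again (let-7a-1-3p, miR-140-3p, miR-326-3p, miR-351-5p and miR-455-5p). The log2FC of miR-25-5p went from −1.86 to −0.35 and that of miR-149-5p from −1.21 to −0.65. Those of miR-674-5p (−1.77, adjusted p = 0.0796) and let-7c-2-3p (1.27, adjusted p = 0.0549) missed the threshold, and miR-7a-5p and miR-7b had no adjusted p. In plasma, a change in the number of cells that release a miRNA and a change in the amount each cell releases cannot be told apart.

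MiR-185-5p, a repressor of the small GTPases RhoA and Cdc42, was at 0, 1622, 14.8 and 0 CPM in sham rats 1 to 4 and between 1.29 and 8.68 CPM in the TBI+ rats (median 5.5). Sham rat 2 alone was high, and the other 3 sham rats had 0 to 3 reads each. The fitted difference with all sham rats was large (log2FC −5.83, standard error 0.92, adjusted p = 0.000144). Without sham rat 2 the fit gave 0.44 (adjusted p = 0.886), which is not a measured fold, since those sham rats were at or under the floor.

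MiR-7a-5p, enriched in pancreatic islets and neuroendocrine cells, was at 0, 395, 19.8 and 5.58 CPM in sham rats 1 to 4 and between 0 and 2.58 CPM in the TBI+ rats (median 1.63). Sham rats 2 and 3 lay above the TBI+ range, sham rat 4 slightly above it, and sham rat 1 had no read (log2FC −5.63, standard error 0.91, adjusted p = 0.000144). It was the 1 miRNA of the 10 that kept an unadjusted p below 0.05 without sham rat 2 (log2FC −2.25, unadjusted p = 0.0449, adjusted p = 0.347). MiR-7b, of the same seed, was at 0, 185, 9.9 and 0 CPM in sham rats 1 to 4 and between 0 and 1.29 CPM in the TBI+ rats (median 0). All TBI+ rats had at most 3 reads, so the level was at least 15.5-fold lower than the sham mean (adjusted p = 0.000271), a mean carried by sham rat 2.

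MiR-24-3p, made from the miR-23, miR-27 and miR-24 clusters, was at 555, 53601, 831 and 1061 CPM in sham rats 1 to 4 and between 509.9 and 1109 CPM in the TBI+ rats (median 979). Sham rats 1, 3 and 4 lay within the TBI+ range, and sham rat 2 was far above all others. The fitted difference was large with sham rat 2 (log2FC −3.88, standard error 0.67, adjusted p = 0.000271) and 0.09 without it. Its cluster mate miR-27b-3p was at 10623, 11226, 6266 and 19919 CPM in sham rats 1 to 4, with sham rat 4 the highest. MiR-23b-3p, transcribed with it and chosen after its values were seen, was at 988, 1906, 579 and 2434 CPM in sham rats 1 to 4. None of the 12 tested neighbours of the miR-24 genes with a RefSeq position exceeded 4 times all other libraries in sham rat 2.

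MiR-455-3p, encoded within a collagen gene, was at 0, 333, 0 and 2.79 CPM in sham rats 1 to 4 and between 0 and 5.89 CPM in the TBI+ rats (median 1.58). Only sham rat 2 stood above the TBI+ range (log2FC −5.10, standard error 0.97, adjusted p = 0.000858). MiR-494-3p, from the imprinted Dlk1-Dio3 region, was at 0, 197, 0 and 2.79 CPM in sham rats 1 to 4 and between 0 and 4.9 CPM in the TBI+ rats (median 1.58), again with sham rat 2 alone above the TBI+ range (log2FC −4.06, standard error 0.92, adjusted p = 0.0058). MiR-200c-3p, a repressor of Zeb1 and Zeb2 in epithelia, was at 28.4, 401, 29.7 and 44.7 CPM in sham rats 1 to 4 and between 14.7 and 30.7 CPM in the TBI+ rats (median 16.6). Sham rat 4 also lay above the TBI+ range, while sham rats 1 and 3 lay inside it (log2FC −2.46, standard error 0.51, adjusted p = 0.00228; log2FC −0.76 and adjusted p = 0.521 without sham rat 2).

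The last 3 rested on few reads outside sham rat 2. MiR-1b, a muscle miRNA of the miR-1 family, was at 0, 67.8, 0 and 0 CPM in sham rats 1 to 4 and between 0 and 0.789 CPM in the TBI+ rats (median 0). The TBI+ rats had at most 3 reads each, which made it at least 5.40-fold lower (adjusted p = 0.0019). In the same way, miR-3068-5p was at 0, 92.5, 0 and 2.79 CPM in sham rats 1 to 4 and between 0 and 2.31 CPM in the TBI+ rats (median 0) and at least 7.59-fold lower (adjusted p = 0.00497). MiR-503-5p, from an X-linked cluster with miR-322 and miR-351, was at 0, 123, 0 and 0 CPM in sham rats 1 to 4 and between 0 and 7.34 CPM in the TBI+ rats (median 0) (log2FC −4.05, standard error 1.10, adjusted p = 0.0442). No read of miR-1b or miR-503-5p was found in sham rats 1, 3 and 4.

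Sham rat 2 was the highest of the 11 libraries for all 10 miRNAs. For 7 of the 10, each other sham rat had at most 3 reads. Without sham rat 2 the sign of the fitted difference was positive for 6 and negative for 4, but for those 7 it gives no measured direction. In the D2 sample of sham rat 2, miR-185-5p had no read. Of 73 tested neighbours with a RefSeq position within 50000 bases of the genes of the 10, counted per gene, 0 exceeded 4 times all other libraries in sham rat 2. Of these, 42 lie around miR-494, and none was found so for miR-1b, miR-7b and miR-455-3p; miR-455-5p, the opposite strand of the last, has no such position and is given below. The opposite strand miR-185-3p, chosen after its values were seen, was at 14.2, 18.5, 19.8 and 11.2 CPM in sham rats 1 to 4. Counts of miR-503-5p were even in all 25 libraries with reads, and those of miR-7a-5p in 22 of 23. What made this library differ was not tested. The comparison of TBI− with the same sham rats shares these controls, and its values for miR-185-5p (log2FC −6.17) and miR-24-3p (log2FC −4.41) stand beside −5.83 and −3.88 for TBI+.

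**Figure D2:**
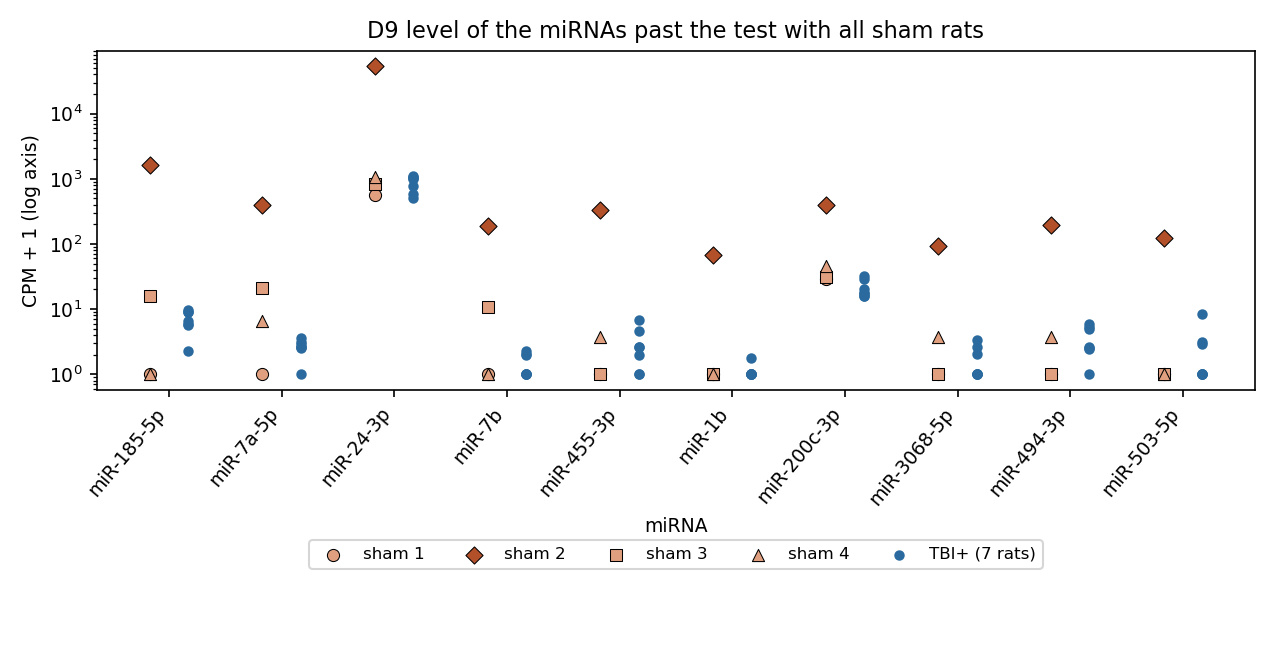
CPM plus 1 on D9 (log axis) of the 10 miRNAs called by edgeR with all sham rats; orange symbols are the 4 sham rats and blue points the 7 TBI+ rats. Sham rat 2 (dark diamond) is the highest of the 11 for all 10 miRNAs, and the other sham rats mostly lie among or near the TBI+ rats.

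The mature sequences of the 4 called miRNAs with the lowest adjusted p are shown because 2 of them are nearly identical. Sequences are from RefSeq (GRCr8), where 493 of the 541 tested miRNAs had one, and 42 of the 45 named for a test, missing overlap, abundance or the PCR of the study; capitals mark the seed, bases 2 to 8. MiR-7a-5p (genes at chr1:142215818-142215840 (+) and chr17:6278710-6278732 (+)) and miR-7b (chr9:1167464-1167486 (+)) have the same seed and differ at 1 of 23 positions. MiR-185-5p (chr11:96169041-96169062 (+)) and miR-24-3p (chr17:1818672-1818693 (−) and chr19:40859481-40859502 (−)) share the seed of no other tested miRNA with a sequence.
miR-7a-5p: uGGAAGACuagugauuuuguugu
miR-7b: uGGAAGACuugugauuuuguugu
miR-185-5p: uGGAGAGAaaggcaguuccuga
miR-24-3p: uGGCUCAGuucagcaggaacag

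When sham rat 2 was left out, the number of calls depended on the libraries in the fit, which set the spread between rats, the scaling and the miRNAs tested. With the TBI− libraries included, edgeR called 0 of the 541 miRNAs, with a lowest adjusted p of 0.114. With only the 10 libraries compared, it called 4 upregulated (miR-19a-3p, miR-19b-3p, miR-128-3p and miR-301b-3p; 0.791% of 506) and 3 downregulated miRNAs (miR-133a-5p, miR-329-5p and miR-455-5p; 0.593%), with a lowest adjusted p of 0.0379 and a median log2FC of 0.51. At an unadjusted p below 0.05 the fit with the TBI− libraries, used below unless stated, gave 40 higher (7.39%) and 35 lower miRNAs (6.47%). DESeq2 on the same libraries called 6 upregulated (2.08% of 289) and 11 downregulated miRNAs (3.81%). Within the run of 8 libraries without sham rat 2, edgeR called 0 (49 with an unadjusted p below 0.05) and DESeq2 called 0 (44). The median log2FC over all miRNAs was 0.21 without sham rat 2. The 6 miRNAs each way with the lowest unadjusted p in edgeR follow, each with an adjusted p of 0.114, so none passed the threshold in that fit. Values within the run are those without sham rat 2.

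MiR-19a-3p, part of the miR-17-92 cluster, was at 263, 759, 153 and 193 CPM in sham rats 1 to 4 and between 251 and 917 CPM in the TBI+ rats (median 626). Sham rat 2 lay inside the TBI+ range and sham rat 1 at its lower end, while sham rats 3 and 4 lay below it. Its log2FC without sham rat 2 was 1.50 (standard error 0.43, unadjusted p = 0.00119), within the run 1.18 (unadjusted p = 0.00962), and with DESeq2 1.46 (adjusted p = 0.0275). MiR-19b-3p, its near twin, was at 640.0, 1604, 337 and 419 CPM in sham rats 1 to 4 and between 591 and 1927 CPM in the TBI+ rats (median 1282). It followed the same order, with sham rats 3 and 4 below the TBI+ range and sham rat 2 inside it (log2FC 1.36 without sham rat 2, 1.06 within the run, 1.32 and adjusted p = 0.0424 with DESeq2).

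MiR-301b-3p, of the miR-130 and miR-301 family, was at 334, 796, 213 and 762 CPM in sham rats 1 to 4 and between 563 and 1945 CPM in the TBI+ rats (median 1080.3). Below the TBI+ range were sham rats 1 and 3, and inside it sham rats 2 and 4 (log2FC 1.45 without sham rat 2, DESeq2 1.40, adjusted p = 0.0424). Its counts were within 5% of those of miR-301a-3p over all libraries, so the pair was not told apart. MiR-128-3p, a brain-enriched miRNA, was at 1998, 3750.2, 1737 and 3124 CPM in sham rats 1 to 4 and between 2417 and 9726 CPM in the TBI+ rats (median 3678). TBI+ rats 1 to 4, which share the run of the sham rats, lay between 2417 and 3678 CPM, among the sham rats, and TBI+ rats 5 to 7 between 9503 and 9726 CPM, above them all. The log2FC of 1.41 without sham rat 2 was 0.54 within the run (unadjusted p = 0.17), and run and level cannot be told apart for TBI+ rats 5 to 7.

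The remaining 2 of the higher miRNAs had at most 1 read in any sham rat. MiR-98-3p, the minor strand of a let-7 relative, was at 0, 6.17, 0 and 2.79 CPM in sham rats 1 to 4 and between 10.3 and 25 CPM in the TBI+ rats (median 12.8). MiR-340-3p had no read in any sham rat and was between 3.27 and 14.2 CPM in the TBI+ rats (median 11). Both TBI+ medians lay under the floor of 3 reads in sham rats 1, 2 and 3. With all sham rats, edgeR called miR-340-3p on the 11 libraries alone (adjusted p = 0.0429) and with TBI+ rat 2 left out (adjusted p = 0.0427). The counts of miR-340-3p were even numbers in all 34 libraries that had any.

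Among the lower miRNAs, miR-455-5p, the opposite strand of miR-455-3p, was at 377, 105, 267 and 111.7 CPM in sham rats 1 to 4 and between 34.8 and 116.8 CPM in the TBI+ rats (median 84.4). It was above the TBI+ range in sham rats 1 and 3 and inside it in sham rats 2 and 4 (log2FC −1.72, standard error 0.46, unadjusted p = 0.000658 without sham rat 2; DESeq2 −1.76, adjusted p = 0.0424). MiR-351-5p, which has the seed of the miR-125 family, was at 2745, 1906, 4073 and 952 CPM in sham rats 1 to 4 and between 509 and 1622 CPM in the TBI+ rats (median 883). Sham rats 1, 2 and 3 were above the TBI+ range and sham rat 4 inside it (log2FC −1.38 without sham rat 2, −0.94 within the run). MiR-147, induced in activated macrophages, was at 398, 154, 525 and 150.8 CPM in sham rats 1 to 4 and between 64.8 and 185 CPM in the TBI+ rats (median 153). Again sham rats 1 and 3 were high, and sham rats 2 and 4 were not (log2FC −1.39 without sham rat 2).

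MiR-127-3p and miR-329-5p come from the imprinted Dlk1-Dio3 region, whose miRNAs are expressed in brain and muscle. MiR-127-3p was at 491, 148, 633 and 226 CPM in sham rats 1 to 4 and between 60.5 and 308 CPM in the TBI+ rats (median 169.96). The TBI+ range was exceeded in sham rats 1 and 3, and sham rats 2 and 4 lay inside it (log2FC −1.43 without sham rat 2). MiR-329-5p was at 35.6, 6.17, 74.2 and 8.38 CPM in sham rats 1 to 4 and between 0.535 and 10.3 CPM in the TBI+ rats (median 6.54), with the same pair of sham rats above (log2FC −2.90). Neighbours within 50000 bases did not all share this sign without sham rat 2: of 19 tested miRNAs with a RefSeq position around miR-127, itself included, 9 were higher and 8 lower (median log2FC 0), and of 43 around miR-329, 28 were higher and 12 lower (median log2FC 1.05, with no bound for members at the floor). The opposite strands miR-127-5p and miR-136-5p have no such position, are not in these counts, and were lower. MiR-6333, the last of the 6, had reads in sham rat 4 alone (2 reads, 5.58 CPM) and was at or under the floor in both groups.

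The lower miRNAs rested mostly on sham rats 1 and 3, the higher ones on sham rats 1, 3 and 4. Of the 6 lower miRNAs, 5 were above the TBI+ range in sham rat 1, 5 in sham rat 3, 1 in sham rat 2 and 1 in sham rat 4. Of the 6 higher ones, 4 were below that range in sham rat 1, 6 in sham rat 3, 2 in sham rat 2 and 4 in sham rat 4. Among the 11 miRNAs that DESeq2 called downregulated without sham rat 2, all 11 were above the TBI+ range in sham rat 1 and all 11 in sham rat 3, but 3 in sham rat 2 and 1 in sham rat 4. Of its 6 upregulated miRNAs, 4 were below the range in sham rat 1, 6 in sham rat 3, 1 in sham rat 2 and 4 in sham rat 4. The totals of sham rats 1 and 3 were among the 3 smallest, and the part of depth was not tested beyond the thinning described next.

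**Figure D3:**
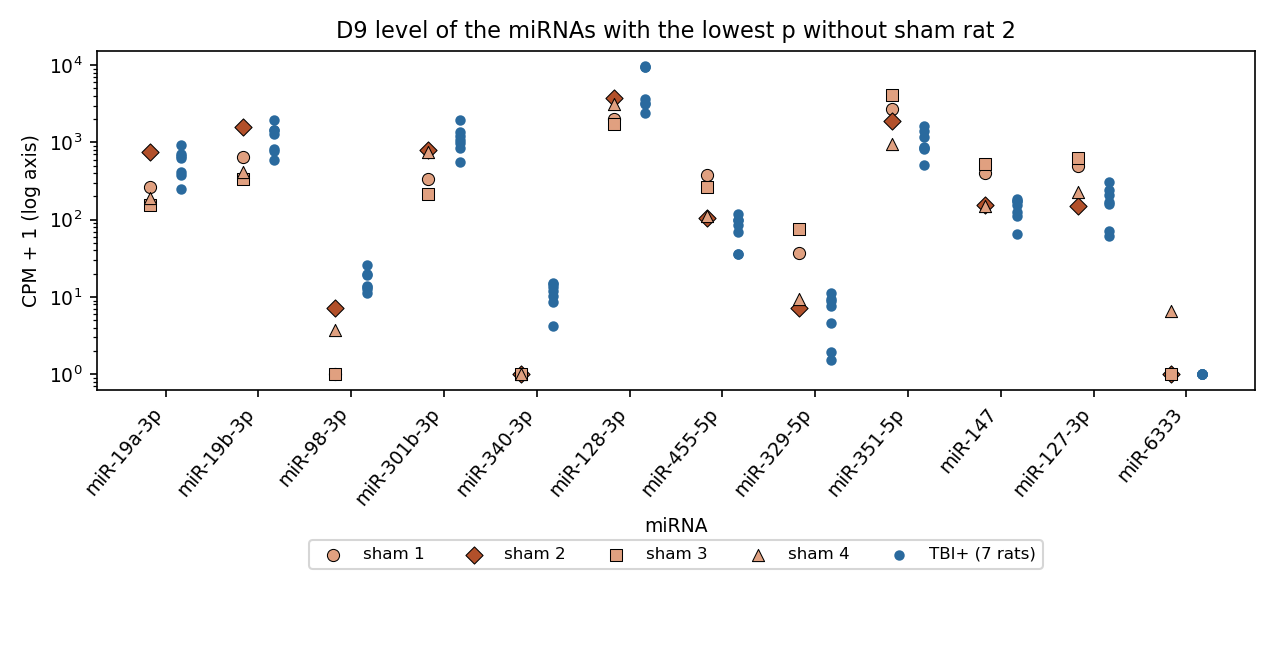
CPM plus 1 on D9 (log axis) of the 6 miRNAs each way with the lowest unadjusted p without sham rat 2; orange symbols are the 4 sham rats and blue points the 7 TBI+ rats. Among the lower miRNAs, sham rats 1 (circle) and 3 (square) lie above the TBI+ rats for 5 of 6, while sham rats 2 and 4 mostly lie among them.

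At equal depth with all sham rats, edgeR called 11, 10, 14, 15 and 10 miRNAs over the 5 seeds, of which 7 to 10 were among the 10 called at full depth. With all seeds, 8 miRNAs were downregulated (1.88% of the 425 tested in each). They were miR-7a-5p, miR-7b, miR-24-3p, miR-185-5p, miR-455-3p and miR-494-3p, which sham rat 2 carried, together with miR-146a-5p and miR-140-3p. MiR-146a-5p, a brake on inflammatory signalling, was at 626, 13311, 559 and 1262 CPM in sham rats 1 to 4 and between 425 and 1807 CPM in the TBI+ rats (median 944), so here too sham rat 2 was far above the rest. Thinned libraries without sham rat 2 gave 15, 0, 19, 15 and 0 calls (65 to 75 with an unadjusted p below 0.05), so the number depended on the random draw. In 3 of the 5 seeds, 11 miRNAs were downregulated (2.63% of the 419 tested in each): miR-22-3p, miR-127-3p, miR-133a-5p, miR-147, miR-328b-3p, miR-329-5p, miR-351-5p, miR-378b, miR-450a-5p, miR-450b-5p and miR-455-5p. In edgeR, no miRNA was upregulated with more than 1 seed. DESeq2 on the thinned libraries called 4, 3, 1, 3 and 1 with all sham rats and 11, 18, 11, 8 and 9 without sham rat 2.

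MiR-140-3p, abundant in cartilage and in blood, was the miRNA whose difference depended least on sham rat 2 among those called with all 5 seeds. It was at 14847, 18782, 10952 and 6572 CPM in sham rats 1 to 4 and between 5184 and 6883 CPM in the TBI+ rats (median 5721). Sham rats 1, 2 and 3 lay above all TBI+ rats, and sham rat 4 lay near the top of the TBI+ range. At full depth it narrowly missed the edgeR threshold (log2FC −1.02, standard error 0.29, adjusted p = 0.0532). At equal depth its log2FC in edgeR had a median of −1.24, with adjusted p between 0.0078 and 0.0154 over the 5 seeds. At equal depth without sham rat 2, edgeR called it with 1 of the 5 seeds (median log2FC −1.06, adjusted p between 0.0231 and 0.101). DESeq2 called it with all sham rats (log2FC −1.20, adjusted p = 0.00292) and without sham rat 2 (log2FC −0.95, adjusted p = 0.0424), whereas edgeR without sham rat 2 did not (log2FC −0.92, adjusted p = 0.144). Within the run the log2FC was −0.77 (unadjusted p = 0.035). On D2 the sham rats were between 9894 and 16739.8 CPM and the TBI+ rats between 4085 and 7208, and the difference passed the threshold (log2FC −1.20, adjusted p = 5.10e-05).

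Among the 17 calls of DESeq2 without sham rat 2 were miR-223-3p and miR-222-3p. MiR-223-3p, a myeloid miRNA, was at 1131, 2412, 584 and 1496 CPM in sham rats 1 to 4 and between 1541 and 4259 CPM in the TBI+ rats (median 2248). Every sham rat except sham rat 2 lay below the TBI+ range (log2FC 1.18 by DESeq2, adjusted p = 0.0424). MiR-222-3p, known from vascular cells, was at 49.8, 185, 89.1 and 162 CPM in sham rats 1 to 4 and between 155 and 442 CPM in the TBI+ rats (median 196). TBI+ rats 5 to 7 lay between 317 and 442 CPM and TBI+ rats 1 to 4 between 155 and 196, where sham rats 2 and 4 also lay (log2FC 1.32 by DESeq2, 0.80 in edgeR within the run without sham rat 2, unadjusted p = 0.0865).

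MiR-351-5p, miR-450a-5p and miR-450b-5p, 3 of the 11 downregulated, come from 1 cluster on the X chromosome. MiR-450a-5p was at 967, 463, 1475 and 444 CPM in sham rats 1 to 4 and between 347 and 550.2 CPM in the TBI+ rats (median 440.3). MiR-450b-5p was at 1742, 913, 2836 and 863 CPM in sham rats 1 to 4 and between 682 and 1072 CPM in the TBI+ rats (median 859). Both were high in sham rats 1 and 3 and at the TBI+ level in sham rats 2 and 4 (log2FC −1.17 and −1.13 by DESeq2 without sham rat 2). Over the 12 tested miRNAs of that cluster with a RefSeq position, 7 were lower and 5 higher without sham rat 2 (median log2FC −0.50). These include miR-503-5p, which had no read in sham rats 1, 3 and 4, so not every sign is a measured direction. MiR-322-5p, a member chosen after its values were seen, was at 85.3, 160.4, 9.9 and 22.3 CPM in sham rats 1 to 4 and between 55 and 142 CPM in the TBI+ rats (median 94.1). For it, sham rats 3 and 4 lay below the TBI+ range (log2FC 1.46, unadjusted p = 0.0192 in edgeR without sham rat 2).

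Sequences of the miRNAs that carried the comparison without sham rat 2 are grouped by seed, since miRNAs of 1 seed can share targets and, where nearly identical, reads. MiR-19a-3p (chr15:98588179-98588201 (+)) and miR-19b-3p (chr15:98588486-98588508 (+) and chrX:137343070-137343092 (−)) differ at 1 of 23 positions. Let-7a-1-3p (chr17:16320196-16320217 (+)) and let-7c-2-3p (chr7:118683684-118683705 (+)) differ at 0 of 22 positions, and miR-98-3p (chrX:24460721-24460741 (+)) has the same seed. MiR-22-3p (chr10:60805387-60805408 (+)), miR-351-5p (chrX:137725157-137725181 (−)), miR-127-3p (chr6:134328510-134328531 (+)) and miR-140-3p (chr19:52375353-52375373 (+)) have other seeds.
miR-19a-3p: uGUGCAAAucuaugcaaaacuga
miR-19b-3p: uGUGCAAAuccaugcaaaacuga
let-7a-1-3p: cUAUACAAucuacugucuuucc
let-7c-2-3p: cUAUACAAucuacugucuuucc
miR-98-3p: cUAUACAAcuuacuacuuucc
miR-22-3p: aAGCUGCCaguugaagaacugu
miR-351-5p: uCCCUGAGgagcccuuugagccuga
miR-127-3p: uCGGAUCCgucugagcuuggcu
miR-140-3p: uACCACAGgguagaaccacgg

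Levels in the groups were fully separate, with no TBI+ rat among the sham rats, for 9 higher (1.66%) and 2 lower miRNAs (0.37%). Let-7a-1-3p, a minor let-7 strand, was at 35.6, 24.7, 9.9 and 41.9 CPM in sham rats 1 to 4 and between 58.7 and 92.6 CPM in the TBI+ rats (median 78.4). All TBI+ rats were above all sham rats, and sham rat 3 was the lowest (log2FC 1.56, standard error 0.45, adjusted p = 0.0611; DESeq2 1.40, adjusted p = 0.0318). When sham rat 2 was left out, the log2FC was 1.42 in edgeR (adjusted p = 0.151) and 1.35 in DESeq2 (adjusted p = 0.0424), and within the run 1.29 (unadjusted p = 0.0185). Let-7c-2-3p, identical in sequence and therefore not a separate observation, was at 42.7, 24.7, 9.9 and 41.9 CPM in sham rats 1 to 4 and between 58.7 and 92.6 CPM in the TBI+ rats (median 79.9). Its DESeq2 log2FC was 1.34 with all sham rats (adjusted p = 0.041) and 1.27 without sham rat 2, where it missed the threshold (adjusted p = 0.0549).

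MiR-500-3p was at 21.3, 6.17, 19.8 and 19.5 CPM in sham rats 1 to 4 and between 25.8 and 49.4 CPM in the TBI+ rats (median 34.6), with sham rat 2 the lowest (log2FC 1.27, standard error 0.46, adjusted p = 0.155). MiR-511-3p, encoded within the macrophage mannose receptor gene, was at 7.11, 6.17, 0 and 8.38 CPM in sham rats 1 to 4 and between 16.7 and 26.1 CPM in the TBI+ rats (median 18.9). Each sham rat had at most 3 reads, so it was at least 1.31-fold higher in TBI+ rats (adjusted p = 0.117). The other 5 higher miRNAs (miR-98-3p, miR-143-5p, miR-296-5p, miR-340-3p and miR-3585-5p) had at most 1 read in any sham rat, and their TBI+ medians lay under the floor of sham rats 1, 2 and 3. MiR-143-5p, for example, had no read in any sham rat and was between 1.63 and 9.22 CPM in the TBI+ rats (median 2.58).

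Lower without overlap were miR-3577, at 28.4, 24.7, 24.7 and 33.5 CPM in sham rats 1 to 4 and between 6.42 and 19.2 CPM in the TBI+ rats (median 13.1), and miR-17-1-3p, the minor strand of miR-17, at 71.1, 67.8, 64.3 and 61.4 CPM in sham rats 1 to 4 and between 16.5 and 45.3 CPM in the TBI+ rats (median 27). The sham rats lay close together for both, and all TBI+ rats lay below them. Neither passed the threshold (log2FC −1.03, adjusted p = 0.264, and log2FC −0.99, adjusted p = 0.297).

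MiRNAs that the study also assayed by PCR are given next by their sequencing levels. No library of the 40 held a read of miR-9a-3p, and the same was true of miR-434-3p. MiR-124-3p, a neuron-specific miRNA, had 0 reads in every sham rat and reads in 2 of the 7 TBI+ rats (highest level 2.37 CPM), at or under the floor in both groups. Wherever it was counted, in 20 libraries, the count was divisible by 3. MiR-129-5p, brain-enriched, was at 14.2, 0, 19.8 and 0 CPM in sham rats 1 to 4 and between 0 and 9.81 CPM in the TBI+ rats (median 3.67), and the groups overlapped (log2FC −0.98, adjusted p = 0.78). MiR-136-3p was at 7.11, 30.8, 4.95 and 27.9 CPM in sham rats 1 to 4 and between 22.5 and 59.2 CPM in the TBI+ rats (median 29.4). Its lowest levels were in sham rats 1 and 3, below the TBI+ range, and sham rats 2 and 4 lay inside it (log2FC 1.00, adjusted p = 0.404). MiR-323-3p had reads in sham rat 2 alone (18.5 CPM) and was between 0 and 7.34 CPM in the TBI+ rats (median 5.38).

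MiR-132-3p and miR-212-3p, activity-induced miRNAs of 1 cluster with the same seed, were both higher in sham rats 2 and 4 than in sham rats 1 and 3. MiR-132-3p was at 14.2, 148, 14.8 and 53 CPM in sham rats 1 to 4 and between 24.5 and 68.6 CPM in the TBI+ rats (median 45.3). MiR-212-3p was at 0, 61.7, 4.95 and 41.9 CPM in sham rats 1 to 4 and between 11.2 and 24.5 CPM in the TBI+ rats (median 15.4). The groups overlapped for both (adjusted p = 0.876 and 0.736). MiR-149-5p was at 348, 703, 158.4 and 229 CPM in sham rats 1 to 4 and between 70.5 and 239 CPM in the TBI+ rats (median 176). Sham rats 1 and 2 lay above the TBI+ range. The log2FC was −1.06 in edgeR (adjusted p = 0.119) and −1.21 in DESeq2 (adjusted p = 0.0276). Without sham rat 2, DESeq2 did not call it (log2FC −0.65, adjusted p = 0.212). MiR-28-3p, the reference of the study's PCR, was at 1123, 611, 979.9 and 815 CPM in sham rats 1 to 4 and between 661 and 1180.0 CPM in the TBI+ rats (median 811), and the groups overlapped (log2FC 0.16, adjusted p = 0.86). MiR-455-5p and miR-140-3p are described above.

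Lists of miRNAs that mark tissues, cells or families were described by counts and medians, beside the same over all 541 miRNAs tested. There were 14 lists, and 6 of their names were not in the table. No list member was upregulated in edgeR with all sham rats, and the downregulated ones were those that sham rat 2 carried: miR-1b of 7 tested muscle miRNAs, miR-200c-3p of 7 epithelial miRNAs, miR-7a-5p and miR-7b of 8 endocrine and pancreatic miRNAs, and miR-24-3p of 10 of the miR-23, miR-27 and miR-24 clusters. After sham rat 2 was left out, edgeR called 0 members of any list with the TBI− libraries in the fit. With the 10 libraries alone it called miR-19a-3p and miR-19b-3p of the miR-17-92 list and miR-128-3p of the brain-enriched list upregulated and miR-133a-5p of the muscle list downregulated (DESeq2 called 1 muscle member downregulated and, upregulated, 1 myeloid, 1 let-7 3p and 2 miR-17-92 members). Counts given below are therefore those at an unadjusted p below 0.05 without sham rat 2, which over all miRNAs were 40 higher and 35 lower of 541, with a median log2FC of 0.21. A bounded median, −0.36 over all miRNAs, leaves out members at or under the floor in both groups and sets those at the floor in 1 group to their bound. The floor in CPM was higher in the smaller sham libraries. A member at the sham floor can therefore have a negative bound although its reads were in TBI+ rats alone, as for miR-340-3p. A bounded median below 0 is thus not by itself a lower level in TBI+ rats.

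The summed level of the brain-enriched list was 3818, 5594, 3964 and 3883 CPM in sham rats 1 to 4 and between 3506 and 11276 CPM in the TBI+ rats (median 4891). Sham rats 1, 3 and 4 and TBI+ rats 1 to 4 lay together, sham rat 2 somewhat higher, and TBI+ rats 5 to 7 highest, between 10317 and 11276 CPM. MiR-128-3p was its most abundant member, followed by miR-138-5p, at 1131, 1320.0, 1361 and 296 CPM in sham rats 1 to 4 and between 312 and 1061 CPM in the TBI+ rats (median 495). Of 22 tested members 2 were higher and 1 lower (median log2FC 0.40, bounded −0.63). No read in the 11 libraries was assigned to miR-376a-3p, miR-434-3p or either strand of miR-9a, so the list says nothing of them.

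The red blood cell list summed to 18559, 46069, 14209 and 39924 CPM in sham rats 1 to 4 and between 30380.3 and 75617 CPM in the TBI+ rats (median 43446). Low sums were found in sham rats 1 and 3, below the TBI+ range, whereas sham rats 2 and 4 lay inside it. Of 8 tested members 4 were higher and 0 lower, with a median log2FC of 1.08 (bounded 0.78). Its most abundant member, miR-16-5p, was at 14413, 39772, 11205 and 31820 CPM in sham rats 1 to 4 and between 25307 and 60755 CPM in the TBI+ rats (median 35696), with the same pair of sham rats below the range. MiR-451-5p, specific to red blood cells, was at 2247, 4151, 1653 and 4481 CPM in sham rats 1 to 4 and between 2222 and 12198 CPM in the TBI+ rats (median 5311). For it only sham rat 3 lay below the TBI+ range, and miR-183-5p had no read. The hemolysis index, log2 of miR-451-5p over miR-23a-3p, was 1.30 ± 0.716 in TBI+ rats (SD, n = 7) and 1.13 ± 0.227 in sham-operated rats (SD, n = 4; two-sided exact permutation test, p = 0.633). With the index as a covariate edgeR called 9 miRNAs in place of 10.

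The myeloid and platelet list summed to 52156, 77255, 38905 and 84595 CPM in sham rats 1 to 4 and between 65274 and 89071 CPM in the TBI+ rats (median 82933). The 2 lowest sums were those of sham rats 3 and 1. Of 10 tested members 2 were higher and 1 lower (median log2FC 0.47, bounded 0.35). MiR-191a-5p, the most abundant, was at 29160.4, 35399, 18846 and 42674 CPM in sham rats 1 to 4 and between 29509 and 50556 CPM in the TBI+ rats (median 43615). MiR-142-5p, a miRNA of all blood cell lineages, was at 4906, 14273, 4548 and 26256 CPM in sham rats 1 to 4 and between 15845 and 25512 CPM in the TBI+ rats (median 19801). For this strand sham rats 1, 2 and 3 lay below the TBI+ range and sham rat 4 above it. The opposite one, miR-142-3p, chosen after its values were seen, was at 1074, 913, 2400.3 and 248 CPM in sham rats 1 to 4 and between 347 and 744 CPM in the TBI+ rats (median 474) and went the other way, with sham rats 1, 2 and 3 above the TBI+ range.

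The lymphocyte list summed to 49582, 97974, 25992 and 48039.9 CPM in sham rats 1 to 4 and between 40433 and 66228 CPM in the TBI+ rats (median 55321), with sham rat 2 the highest and sham rat 3 the lowest of all 11. Of 6 members 1 was higher and 0 lower (median log2FC 0.04). MiR-150-5p, the main lymphocyte miRNA, was at 15124, 72512, 8636 and 15019.5 CPM in sham rats 1 to 4 and between 12523 and 39473 CPM in the TBI+ rats (median 20518), and its opposite strand miR-150-3p at 170.7, 1018, 148 and 235 CPM in sham rats 1 to 4 and between 80.1 and 330.3 CPM in the TBI+ rats (median 198). Both strands were highest in sham rat 2. MiR-181a-5p was at 29899.9, 18745, 14609.6 and 29157 CPM in sham rats 1 to 4 and between 17766 and 35391 CPM in the TBI+ rats (median 23762).

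The liver and gut list summed to 84857, 65295, 34436 and 94209 CPM in sham rats 1 to 4 and between 35897 and 98717 CPM in the TBI+ rats (median 73735), nearly all of it miR-192-5p. The groups overlapped, and of 5 tested members 0 were higher and 0 lower (median log2FC −0.02). MiR-122-5p, the main liver miRNA, had no read in any of the 40 libraries, while its minor strand miR-122-3p was at 206, 247, 44.5 and 907 CPM in sham rats 1 to 4 and between 184 and 721 CPM in the TBI+ rats (median 322). MiR-194-5p, transcribed with miR-192-5p, was at 114, 1086, 39.6 and 268 CPM in sham rats 1 to 4 and between 95.3 and 231 CPM in the TBI+ rats (median 189), with sham rat 2 the highest.

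The muscle list summed to 242, 129.5, 193 and 134.003 CPM in sham rats 1 to 4 and between 44.4 and 139.5 CPM in the TBI+ rats (median 54.2). All TBI+ rats lay below sham rats 1 and 3, and all but TBI+ rat 4 below sham rats 2 and 4. Of 7 tested members 0 were higher and 2 lower (median log2FC 0.00, bounded −1.97 over 4 members). MiR-133b-3p, its most abundant member, was at 127.99, 37, 118.8 and 94.9 CPM in sham rats 1 to 4 and between 33.7 and 110.1 CPM in the TBI+ rats (median 37.9). MiR-133a-5p was at 78.2, 6.17, 74.2 and 30.7 CPM in sham rats 1 to 4 and between 7.5 and 25.7 CPM in the TBI+ rats (median 11.4), with sham rats 1, 3 and 4 above the TBI+ range and sham rat 2 below it. MiR-1-3p, miR-133a-3p, miR-133b-5p, miR-206-5p and miR-208a-3p, among them the main muscle miRNAs, had no read in the 11 libraries.

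The vascular list summed to 106040, 85397, 181675 and 101423 CPM in sham rats 1 to 4 and between 91518 and 153534 CPM in the TBI+ rats (median 139888), led by miR-10b-5p, with sham rat 3 the highest. Of 10 tested members 1 was higher and 0 lower (median log2FC 0.04, bounded −0.01), and miR-126a-5p had no read. The epithelial list, which joins the miR-200 family with miR-203a and miR-205, summed to 2239.8, 10184, 2880.3 and 6348 CPM in sham rats 1 to 4 and between 1372 and 6229 CPM in the TBI+ rats (median 3423), with sham rats 2 and 4 the highest. Its most abundant member, miR-205, which is not of that family, was at 626, 5859.7, 1242 and 3411 CPM in sham rats 1 to 4 and between 227 and 3945 CPM in the TBI+ rats (median 1087). Of 7 members 0 were higher and 0 lower (median log2FC −0.31), and miR-200a-5p and miR-203a-3p had no read. The second, miR-200a-3p, was at 519, 1899.8, 346 and 1189 CPM in sham rats 1 to 4 and between 373 and 1227 CPM in the TBI+ rats (median 910.1).

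The endocrine and pancreatic list summed to 7623, 8099, 6973 and 6429 CPM in sham rats 1 to 4 and between 2288 and 9338 CPM in the TBI+ rats (median 4219), nearly all of it miR-375-3p, a miRNA of pancreatic islets and gut epithelium. The sham rats lay inside the TBI+ range only because TBI+ rat 4 was the highest of the 11; the other 6 TBI+ rats lay below all sham rats, TBI+ rats 5 to 7 lowest. MiR-375-3p itself was at 7623, 7513, 6934 and 6401 CPM in sham rats 1 to 4 and between 2266 and 9316 CPM in the TBI+ rats (median 4197). Of 8 tested members 0 were higher and 1 lower (median log2FC 0.03, bounded −2.25 over 5 members).

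The miR-23, miR-27 and miR-24 clusters summed to 23216, 80197, 14263 and 45421 CPM in sham rats 1 to 4 and between 36451 and 49127 CPM in the TBI+ rats (median 37716). Sham rat 2 was the highest through miR-24-3p, and sham rats 1 and 3 lay below the TBI+ range. Of 10 tested members 0 were higher and 0 lower (median log2FC 0.61), and miR-24-1-5p had no read. MiR-27b-3p, the most abundant, was between 15482 and 21690.2 CPM in the TBI+ rats (median 16799), and miR-27a-3p had counts within 5% of it over all libraries.

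The let-7 5p strands, regulators of growth that are abundant in most tissues, summed to 55739.6, 57906, 74231 and 82842 CPM in sham rats 1 to 4 and between 61663 and 144106 CPM in the TBI+ rats (median 83053). TBI+ rats 1 to 4 lay between 61663 and 85913 CPM and TBI+ rats 5 to 7 between 83053 and 144106. Of 7 tested members 3 were higher and 0 lower (median log2FC 0.43), and let-7d-5p and let-7e-5p had no read. Let-7c-5p, the most abundant, was at 17094, 19299.9, 21761 and 31859 CPM in sham rats 1 to 4 and between 19978 and 44871 CPM in the TBI+ rats (median 28414). Let-7a-5p was at 10645, 13422, 14882 and 18914 CPM in sham rats 1 to 4 and between 14794 and 38834 CPM in the TBI+ rats (median 20656). Let-7f-5p, the member with the lowest p, was at 6627, 7143, 8587 and 6923 CPM in sham rats 1 to 4 and between 7051 and 25341 CPM in the TBI+ rats (median 11106). TBI+ rats 5 to 7 were the highest for the last 2, above every sham rat. Their let-7f-5p levels lay between 13787 and 25341 CPM.

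The let-7 3p strands summed to 1458, 1505, 1836 and 1636 CPM in sham rats 1 to 4 and between 1413 and 2912 CPM in the TBI+ rats (median 2008), most of it let-7d-3p, at 1244, 1351, 1727 and 1443 CPM in sham rats 1 to 4 and between 1147 and 2625 CPM in the TBI+ rats (median 1699.8). Of 12 tested members 3 were higher and 0 lower (median log2FC 0.31, bounded 0.12), and let-7a-2-3p had no read. The 5 tested miRNAs with the seed UAUACAA had a median log2FC of 1.33 without sham rat 2, a value that includes the identical pair let-7a-1-3p and let-7c-2-3p.

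The miR-17-92 cluster and its paralogs summed to 90944, 101298, 84193 and 122858 CPM in sham rats 1 to 4 and between 98467 and 167039 CPM in the TBI+ rats (median 124524), led by miR-92a-3p. As in the red blood cell list, sham rats 1 and 3 lay below the TBI+ range and sham rats 2 and 4 inside it. Of 14 members 3 were higher and 1 lower (median log2FC 0.53, bounded 0.38). MiR-25-3p, the next in abundance, was at 2574, 5533, 2252 and 9559 CPM in sham rats 1 to 4 and between 4535 and 15288 CPM in the TBI+ rats (median 6864), again with sham rats 1 and 3 below the TBI+ range. Among the 12 tested miRNAs with a RefSeq position within 50000 bases of miR-19a on chromosome 15, 7 were higher and 5 lower (median log2FC 0.26).

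The miR-29 and miR-30 families summed to 116841, 131164, 143201 and 98372 CPM in sham rats 1 to 4 and between 105425 and 131265 CPM in the TBI+ rats (median 117255), and the groups overlapped. Of 7 tested members 1 was higher and 0 lower (median log2FC 0.18), and miR-29a-3p and miR-29c-3p had no read. MiR-30a-5p was at 46148, 51467, 57513 and 38659.8 CPM in sham rats 1 to 4 and between 38878 and 51842 CPM in the TBI+ rats (median 45564). MiR-30e-5p was at 35816, 32722, 48377 and 23263 CPM in sham rats 1 to 4 and between 25066 and 36030.2 CPM in the TBI+ rats (median 32969). MiR-30a-3p, a minor strand, was at 320.0, 426, 243 and 997 CPM in sham rats 1 to 4 and between 546 and 845 CPM in the TBI+ rats (median 780.3). Sham rats 1, 2 and 3 lay below the TBI+ range for the last of these, and sham rat 4 above it.

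The same rats were bled on D2, so the D9 difference from sham could be set against the D2 difference within rats. Over 581 miRNAs in 40 libraries, with the rat as a block, edgeR's test of the interaction called 2 miRNAs with a higher (0.344%) and 6 with a lower log2FC on D9 than on D2 (1.03%). At an unadjusted p below 0.05 there were 59. When miRNAs with few reads were removed by edgeR's filterByExpr, the same test called 0 of 332 (lowest adjusted p = 0.121).

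MiR-127-3p was at 113, 316, 225 and 304 CPM in sham rats 1 to 4 and between 367 and 792 CPM in the TBI+ rats (median 542) on D2. It was at 491, 148, 633 and 226 CPM in sham rats 1 to 4 and between 60.5 and 308 CPM in the TBI+ rats (median 169.96) on D9. TBI+ rats were above all sham rats on D2 and, on D9, below sham rats 1 and 3 (log2FC on D9 minus that on D2 −2.26, standard error 0.53, adjusted p = 0.00998). The D2 difference itself passed the threshold (log2FC 1.20, adjusted p = 0.00385), whereas that on D9 did not (adjusted p = 0.264).

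MiR-129-5p was at 0, 33.6, 11.9 and 10.5 CPM in sham rats 1 to 4 and between 47.6 and 161 CPM in the TBI+ rats (median 71) on D2. All TBI+ rats were above all sham rats on that day (log2FC 2.59, adjusted p = 0.000476). On D9 all 11 rats were at 19.8 CPM or less, in sham-operated rats at or near the floor (log2FC on D9 minus that on D2 −4.09, standard error 1.00, adjusted p = 0.0124). In 7 of 7 TBI+ rats the D9 level was below the D2 level.

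MiR-133a-5p, a minor strand of a muscle miRNA, was at 50.5, 229, 217 and 434 CPM in sham rats 1 to 4 and between 174 and 388 CPM in the TBI+ rats (median 358) on D2. On D9, sham rats 1 and 3 were at 78.2 and 74.2 CPM and all TBI+ rats at 25.7 CPM or less, with sham rat 4 at 30.7 CPM and sham rat 2, at 6.17, below all TBI+ rats (log2FC on D9 minus that on D2 −2.33, standard error 0.61, adjusted p = 0.0184). MiR-142-5p went the other way, at 28314, 15331, 24103 and 20812 CPM in sham rats 1 to 4 and between 10762 and 22462 CPM in the TBI+ rats (median 14223) on D2. Its D9 levels of 4906 and 4548 CPM in sham rats 1 and 3 were the lowest of the 11 rats, while sham rat 2 lay just below the TBI+ range and sham rat 4 above it (log2FC on D9 minus that on D2 1.59, standard error 0.43, adjusted p = 0.0261). MiR-222-3p was at 283, 426, 475 and 414 CPM in sham rats 1 to 4 and between 165.1 and 306 CPM in the TBI+ rats (median 274) on D2, with 3 of 4 sham rats above all TBI+ rats. On D9 sham rats 1 and 3 were below all TBI+ rats and sham rats 2 and 4 inside their range (log2FC on D9 minus that on D2 1.82, standard error 0.52, adjusted p = 0.036). TBI+ rats 5 to 7 were the highest on D9, between 317 and 442 CPM. With TBI+ rats 1 to 4 only and without sham rat 2, edgeR gave 1.29 (adjusted p = 0.564).

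This comparison rested on sham rats 1 and 3 as well. With sham rat 1 left out on both days, edgeR called 0 miRNAs (47 with an unadjusted p below 0.05), and without sham rat 3 also 0 (42), while without sham rat 2 it called 10 (5 higher, 5 lower). Within the run of TBI+ rats 1 to 4 it called 0 (25 with an unadjusted p below 0.05). In that run without sham rat 2 it called 4, with miR-127-3p, miR-129-5p and miR-133a-5p lower (adjusted p = 0.00301 each) and miR-142-5p higher (adjusted p = 0.0477). DESeq2 was not run for the interaction.

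**Figure D4:**
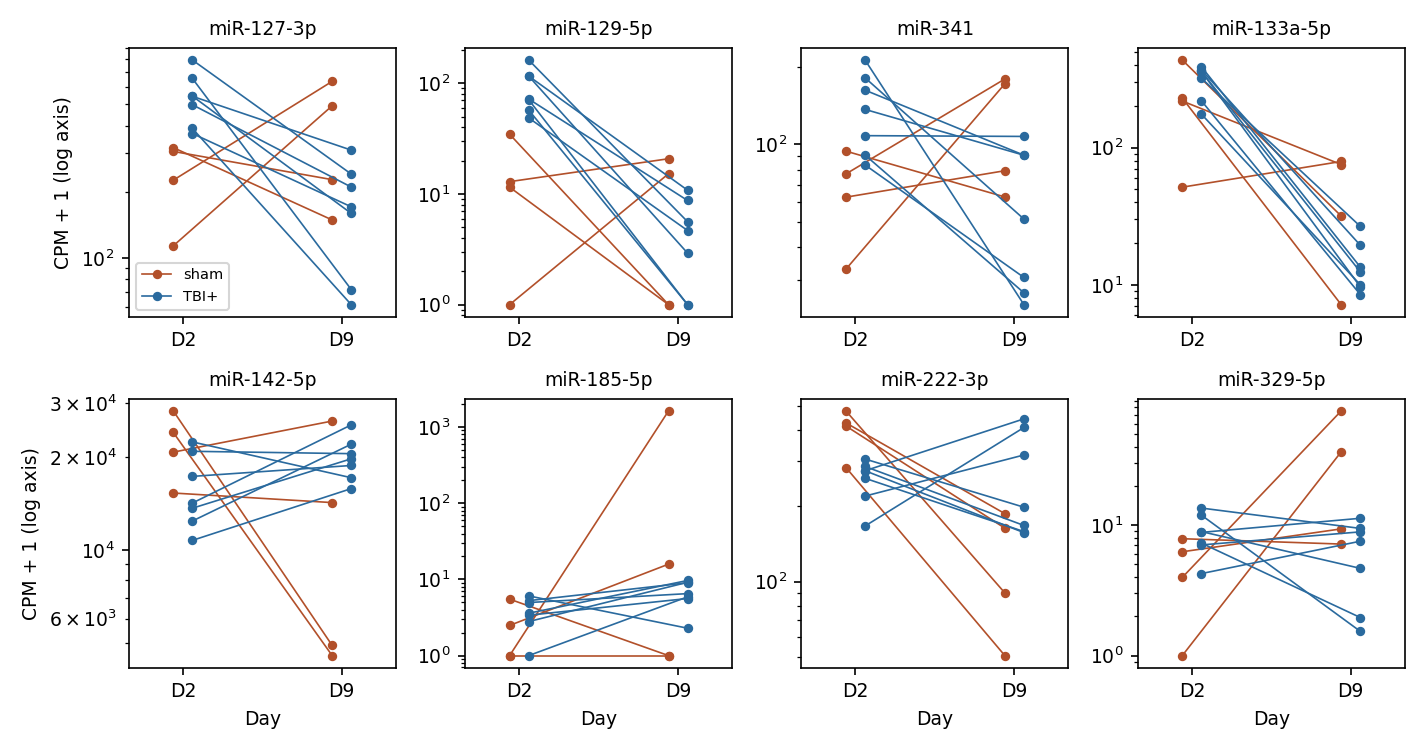
CPM plus 1 (log axes) on D2 and D9 of the 8 miRNAs called for the difference between days; each line is a rat, orange for the 4 sham rats and blue for the 7 TBI+ rats. MiR-127-3p and miR-129-5p are lower on D9 than on D2 in all TBI+ rats, and sham rats 1 and 3 lie below all TBI+ rats on D9 for miR-142-5p and miR-222-3p.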

How the data were processed

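Rat plasma small RNA was sequenced on D2 and D9, 1 library per rat and day. Per the labels, reads were checked with FastQC, trimmed with Trimmomatic and aligned with Bowtie2, and the authors deposited raw read counts per miRNA from featureCounts. The counts were used as deposited, and groups were read from the sample titles.

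Library totals were sums over all miRNAs. The test was edgeR's quasi-likelihood test (TMM, Benjamini-Hochberg) over the 541 miRNAs with a D9 read and all 20 D9 libraries, for TBI+ minus sham. The difference between days was the interaction of day and group over all 40 libraries with the rat as a block. Totals and detected miRNAs were compared with exact permutation tests. Equal depth was random thinning without replacement to 140636 reads (5 seeds). If no library of a group exceeded 3 reads, its fold is a bound computed with 3 reads.

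Named by rule are miRNAs past the edgeR threshold with all sham rats, the 6 each way with the lowest p without sham rat 2, those without overlap, the 5 most abundant, those the study measured by PCR, and for each list its 2 most abundant members and that with the lowest p. Members and lists were chosen with earlier results of these data known; other names come from calls of the other fits, given in part, or are marked as chosen after their values were seen. Alternatives were each rat left out, DESeq2, scaling by RLE, by total count or to miR-28-3p, filterByExpr, only the compared libraries, only the run of 8, near-identical pairs (counts within 5%) counted once, the animal number as a block and the hemolysis index as a covariate. The test was tested on simulated data. Of 780 pairs of libraries 0 were identical. Sequences and positions are from RefSeq (GRCr8).

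The tests ran in edgeR 4.0.16 and DESeq2 1.42.0 under R 4.3.3. Tables and figures were made in Python 3.11.15 with scipy 1.17.1, matplotlib 3.10.9, numpy 2.4.6 and pandas 2.3.3.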

Additional observations from a re-analysis of the deposited data

Results flagged for a closer look

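Within the sham and the TBI+ group on D9, 19 groups of values (16.1% of those looked at) had a sample far from the rest, and in 13 of them it was sham rat 2. About 1 in 20 groups is a nominal chance rate. It does not hold for the 10 called miRNAs, which were looked at because of calls that sham rat 2 had made. Nor does it hold where most rats had no read, as for miR-6333 in sham rats and miR-1b in TBI+ rats. For the 10 called miRNAs the sample was sham rat 2, with miR-185-5p at 1622 CPM, miR-7a-5p at 395, miR-24-3p at 53601, miR-7b at 185, miR-455-3p at 333, miR-1b at 67.8, miR-200c-3p at 401, miR-3068-5p at 92.5, miR-494-3p at 197 and miR-503-5p at 123 CPM. Sham rat 2 also stood apart among the sham rats for the summed brain-enriched list (5594 CPM, the highest), for miR-323-3p (18.5 CPM, the highest) and for miR-500-3p (6.17 CPM, the lowest). Sham rat 4 was the only sham rat with reads of miR-6333 (5.58 CPM).

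Among the TBI+ rats, TBI+ rat 1 had the lowest summed level of the myeloid and platelet list (65274 CPM), and TBI+ rat 4 the highest of the muscle list (139.5 CPM) and of miR-503-5p (7.34 CPM). TBI+ rat 4 had 0 CPM of miR-7a-5p where the other TBI+ rats had reads, and TBI+ rat 3 was the only TBI+ rat with a read of miR-1b (0.789 CPM).

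The difference between TBI+ and sham-operated rats itself differed between the days, by edgeR's interaction test, for 8 miRNAs. The log2FC on D9 minus that on D2 was −2.26 for miR-127-3p, −4.09 for miR-129-5p, −2.17 for miR-341 (adjusted p = 0.0177), −2.33 for miR-133a-5p, 1.59 for miR-142-5p, −4.14 for miR-185-5p, 1.82 for miR-222-3p and −3.23 for miR-329-5p (adjusted p = 0.0402). The fitted value of miR-185-5p became 0.56 without sham rat 2 (adjusted p = 1), with the remaining sham rats at or under the floor on D9. Those of the other 7 kept their sign.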

How the results depend on the processing

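The D9 calls depended on sham rat 2. With all sham rats edgeR called 10 miRNAs. With each rat left out in turn the number was 0 (without sham rat 2) to 15 (without sham rat 4), and with each TBI+ rat left out it was 9 to 11. RLE scaling gave 16 and filterByExpr 3 (275 tested), and with the animal number as a replicate block it was 4. Animal numbers name different rats in the groups, and rats 1 to 4 of the same number have adjoining library numbers. Only 1 of 4 sham rats deviated most like the TBI+ rat of its own number, so the numbers were not taken as pairs. Alternatives chosen after the data were seen were RLE, total count, miR-28-3p scaling and filterByExpr without sham rat 2, with 0 calls each in edgeR (72, 67, 63 and 63 with an unadjusted p below 0.05), and DESeq2 on thinned libraries and within the run. MiR-28-3p scaling moved the median log2FC without sham rat 2 from 0.21 to 0.33. Within the run of 8 libraries, edgeR called 10 with all sham rats, the same 10 as in the main fit, and 0 without sham rat 2. DESeq2 gave 17 without sham rat 2, 0 within the run with or without it, 4, 3, 1, 3 and 1 on thinned libraries, and 18 on thinned libraries without sham rat 2 (seed 2); edgeR on the latter gave 0 (seeds 2 and 5) to 19 (seed 3). The cause was not tested beyond these settings.

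The sign of the fitted log2FC turned for 7 of the 10 called miRNAs in at least 1 setting without sham rat 2. Except for miR-24-3p, each of these had at most 3 reads in each of sham rats 1, 3 and 4. For them the fitted values below without sham rat 2 are not measured folds, and no direction is read from them. In the order edgeR, edgeR on 10 libraries alone, edgeR within the run, DESeq2, and the median of 5 thinnings, the log2FC was 0.61, 0.69, 0.20, 0.26 and 1.70 for miR-455-3p, 0.88, 0.98, 0.56, 0.59 and 1.70 for miR-494-3p, and 3.82, 3.54, 2.93, 0.82 and 1.71 for miR-503-5p. The miR-185-5p log2FC was 0.44, 0.62, 0.51, 0.37 and 0.0674. The miR-24-3p log2FC was 0.0907, 0.25, 0.12, 0.0342 and 0.00239. MiR-1b gave 1.06, 0.92 and 1.23 in the edgeR settings, and miR-3068-5p 1.71 on thinned libraries. With each rat left out in turn, the lowest and highest log2FC were −6.26 and 0.44 for miR-185-5p, −4.28 and 0.0907 for miR-24-3p, −5.87 and 0.61 for miR-455-3p, −6.85 and 1.06 for miR-1b, −4.50 and 0.88 for miR-494-3p, and −4.68 and 3.82 for miR-503-5p. Over the 45 miRNAs named for a test, missing overlap, abundance or the PCR of the study, 1033 values kept sign and side of the threshold, 46 came to pass it (15 miRNAs) and 44 no longer passed it (10 miRNAs). With 10 libraries alone, edgeR called 7 (4 higher, 3 lower), miR-19a-3p among them (adjusted p = 0.0379).

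The ratio of library totals stayed between 5.02 and 7.18 with each sham rat left out; within the run without sham rat 2 it was 3.99 (exact permutation test, p = 0.0857). The difference in detected miRNAs lay between 72.1 and 97.1 with each sham rat left out. It was no longer past the threshold at equal depth, with 2.96, 7.18, 6.29, 1.64 and 5.32 for all sham rats, 9.71, 13.1, 13.6, 9.81 and 12.6 without sham rat 2, and 4.75, 8.25, 11, 1.5 and 8.75 within the run. The calls for the difference between days were 8, and 0 to 9 with sham rat 1, 3 or 4 left out. They were 0 with filterByExpr (55 with an unadjusted p below 0.05). With only TBI+ rats 1 to 4 and the sham rats there were 0, and 4 when sham rat 2 was also left out. The cause was not tested.

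Depth limits the D9 comparison, since 3 reads in sham rat 1 are 21.3 CPM. A miRNA under that level in TBI+ rats could not be shown to be lower in that rat. With 4 sham rats, of which 1 stood apart, the number of calls turned on single animals. TBI+ rats 5 to 7 cannot be told apart from their lower library numbers. Plasma of both groups passed through amplification without molecular identifiers, and a value above the floor says nothing of the tissue a miRNA came from.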
